A study of Mus musculus with 2 samples.

Results

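Immature B cells of the bone marrow are the B cells that have just placed a complete IgM receptor on their surface and have left the pre-B stage, but do not yet carry the IgD and CD23 of mature B cells. They were selected on measured single-cell RNA counts, the unique molecular identifiers (UMIs, counted mRNA molecules) of a few genes. A cell had to hold at least 2 UMIs of Cd79a, the Ig-alpha signalling chain of the B cell receptor, and at least 1 UMI of Ms4a1, which encodes CD20. It could hold at most 1 UMI of the T cell genes Cd3d, Cd3e and Cd3g together and at most 1 UMI of Vpreb1 and Igll1, the surrogate light chain genes of earlier B cells. It had to lack Fcer2a, which encodes CD23, and could hold at most 1 UMI of Ighd, the IgD constant region. This selected 725 of the 20322 cells that had 500 or more genes, 1000 or more UMIs and a mitochondrial share under 10%.

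The study sorted bone marrow cells as natural killer progenitors, that is, CD122-positive cells negative for lineage markers, c-kit, Sca-1, Ncr1 and NK1.1. One genotype was wild-type C57BL/6 (WT) and the other Irf4-/-, which is meant to lack the transcription factor IRF4. There was 1 library per genotype, made with a droplet-based 3' kit, so no difference between the libraries has a replicate check and no test was made. The labels give neither the age and number of mice nor which segment of Irf4 is deleted, and the kit text speaks of nuclei although cells were sorted. With 1 library each, genotype and library cannot be told apart. The library labelled Irf4-/- held 348 of the selected cells among 7955 kept, and the library labelled WT held 377 among 12367.

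IRF4 and its relative IRF8 act with PU.1 and Spi-B in developing B cells, where they are known for ending the pre-B stage and for opening the kappa and lambda light chain loci. A B cell usually rearranges kappa first and turns to lambda if kappa fails, so that a mature cell carries a single light chain type. MHC class II genes, which present peptides to helper T cells, are switched on as B cells mature, under the coactivator CIITA.

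The label of immature B cells was set beside genes that the rule did not use. Vpreb3 and Ly6d were given as markers of these cells, so they are no independent check. Vpreb3, a pre-B and immature B cell chaperone of the receptor, had a UMI in 95.1% of the selected cells of the library labelled Irf4-/- and in 95.2% of those labelled WT. Ly6d, a surface marker of B lineage commitment, had a UMI in 98.3% and 98.9%. In mature B cells Vpreb3 had a UMI in 80.3% and 74.9% and Ly6d in 97.2% and 95.8%, so Ly6d marks B cells of both stages here. Among CD3-expressing cells of the same libraries the shares were 0.827% and 0.351% for Vpreb3 and 0.767% and 0.594% for Ly6d, although those cells were deeper. Cd93, the antigen of early and transitional B cells, stood at 64.0 and 64.1 counts per 1000000 UMIs (CPM), and the 95% interval of the log2 ratio ran from -0.42 to 0.42. That ratio compares the libraries and does not check the stage. Among cells that met the other limits, Cd93 stood at 75.7 and 69.9 CPM with 0 UMIs of Ighd. With 1 UMI of Ighd it stood at 48.4 and 52.6 CPM, and just outside the selection, with 2 UMIs, at 55.6 and 61.5 CPM, with overlapping intervals. With 3 or more UMIs of Ighd it stood at 35.0 and 34.3 CPM. Cd93 was thus no lower just outside the Ighd limit than just inside it. All log2 ratios between the libraries are of CPM over the summed cells, library labelled Irf4-/- over library labelled WT, and all intervals cover counting error alone.

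Transcripts of the sorting markers were scarce in these cells. Il2rb, which encodes CD122, had 5 UMIs in the 348 cells labelled Irf4-/- and 0 in the 377 labelled WT, which allows a share of cells with a UMI of up to 0.796%. Kit, Klrb1c and Ncr1 had 0 UMIs in both libraries, which allows up to 0.862% and 0.796% of cells. These limits at 0 UMIs are 3 counts over the number of cells. Ly6a, which encodes Sca-1, had 26 and 39 UMIs. In CD3-expressing cells Il2rb had a UMI in 93.5% and 80.5% of cells.

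Irf4 itself was counted more often in the library labelled Irf4-/-. It gave 84 UMIs (52.7 CPM, 42.1 to 65.3), against 43 UMIs (30.3 CPM, 21.9 to 40.8) for the library labelled WT. The ratio was 0.80 (0.25 to 1.36). Since a 3' library reads mostly transcript ends, and the deleted segment is unknown here, this count does not check the genotype, and the libraries are called by their labels throughout.

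Cell types outside the B lineage were nearly absent among the selected cells. The 12 alpha-beta T cell markers summed to 62 and 100 UMIs, with 2 and 1 of them at 0, and no cell held more than 3 UMIs. The 12 natural killer and innate lymphoid markers summed to 80 and 91 UMIs, with 5 and 6 at 0, and the 13 myeloid markers to 50 and 76 UMIs, with 5 and 6 at 0. The 8 plasmacytoid dendritic markers summed to 39 and 31 UMIs, with 6 and 5 at 0, and the 6 plasma cell markers to 147 and 222 UMIs, most of them from Xbp1 and Slamf7. Erythroid markers summed to 41 UMIs in the library labelled Irf4-/- and to 8989 in the library labelled WT, where 2 cells held 8914 haemoglobin UMIs. Markers of other B cell stages were present. The 8 mature B markers, which include Ighd and Fcer2a of the rule, summed to 857 and 1127 UMIs. That is 538 and 794 CPM, against 1842 and 2658 CPM in mature B cells. The 10 progenitor B markers, which include Vpreb1 and Igll1 of the rule, summed to 128 and 88 UMIs. The library labelled Irf4-/- was the deeper of the pair, with a median of 3826 UMIs per selected cell (5th to 95th percentile 2773 to 8081) against 2977 (2055 to 9366). No barcode was a selected cell in both libraries, although 25 kept barcodes were shared.

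Some cells stood close to the limits of the rule. Of the selected cells, 133 labelled Irf4-/- and 116 labelled WT held exactly 1 UMI of Ighd, and 81 and 50 cells just outside held 2. A total of 34 selected cells labelled Irf4-/- and 1 labelled WT held 1 UMI of Vpreb1 and Igll1, with 13 and 0 just outside at 2. Ms4a1 stood at its minimum of 1 UMI in 15 and 23 cells, and 71 and 82 cells that met the other limits had none. A limit in raw UMIs selects differently at different depths. Therefore some values are also given with the rule applied to cells thinned to 2000 UMIs, where it took 501 and 439 cells. Values given without such a figure may depend on depth as well.

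The share of immature B cells depended on what it was a share of. They were 4.37% of all kept cells for the library labelled Irf4-/- (exact 95% interval 3.94 to 4.85%) against 3.05% for that labelled WT (2.75 to 3.37%), a log2 ratio of shares of 0.52. Among cells past the Cd79a and CD3 limits the log2 ratio was -0.31. That denominator includes progenitor B cells, with at least 2 UMIs of Vpreb1 and Igll1, which numbered 261 in the library labelled Irf4-/- and 13 in that labelled WT. With the rule applied after thinning the log2 ratio over kept cells was 0.83. Mature B cells, with Ms4a1 and either Fcer2a or at least 2 UMIs of Ighd, numbered 351 and 407. All these numbers and shares are of cells sorted as natural killer progenitors and do not give abundance in the bone marrow.

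Compared with mature B cells of the same library, immature B cells had higher levels of genes of the immature stage and lower levels of genes of the follicular stage. Of 8659 genes tested in the library labelled Irf4-/-, 2.09% were at least 2-fold higher in immature than in mature B cells and 3.04% at least 2-fold lower, and of 8146 in the library labelled WT 5.05% and 2.91%. All 10 genes listed for the immature and transitional stage were higher in both libraries, with medians of 0.41 and 0.69 on the log2 scale, beside medians of 0.03 and 0.09 over all genes. In the 2 libraries, 1 and 3 of these genes were at least 2-fold higher. Of the 15 genes listed for the follicular stage, 7 and 10 were at least 2-fold lower, with medians of -0.90 and -1.10. Many of these genes take part in what separates the stages by definition, so the counts describe the selection.

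The genes that differed most from mature B cells in both libraries were named by rank. Coq7, an enzyme of ubiquinone synthesis, had log2 ratios of immature over mature cells of 1.73 and 1.87, from 112 against 33.7 CPM in the library labelled Irf4-/- and 208 against 56.9 CPM in the library labelled WT. Atp1b1, a beta subunit of the sodium pump, had ratios of 1.61 and 1.59. Vpreb3 had ratios of 1.24 and 1.51, and its level in progenitor B cells of the library labelled Irf4-/- was higher still, at 3754 CPM against 2864 CPM in immature cells. Among the lower genes, Apoe, the lipid carrier, had ratios of -2.86 and -3.48. Gpr183, a receptor that guides B cells to the edge of follicles, differed from mature cells by -1.17 (-1.59 to -0.76) in the library labelled Irf4-/- and by -2.96 (-3.73 to -2.27) in that labelled WT.

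**Figure D1:**
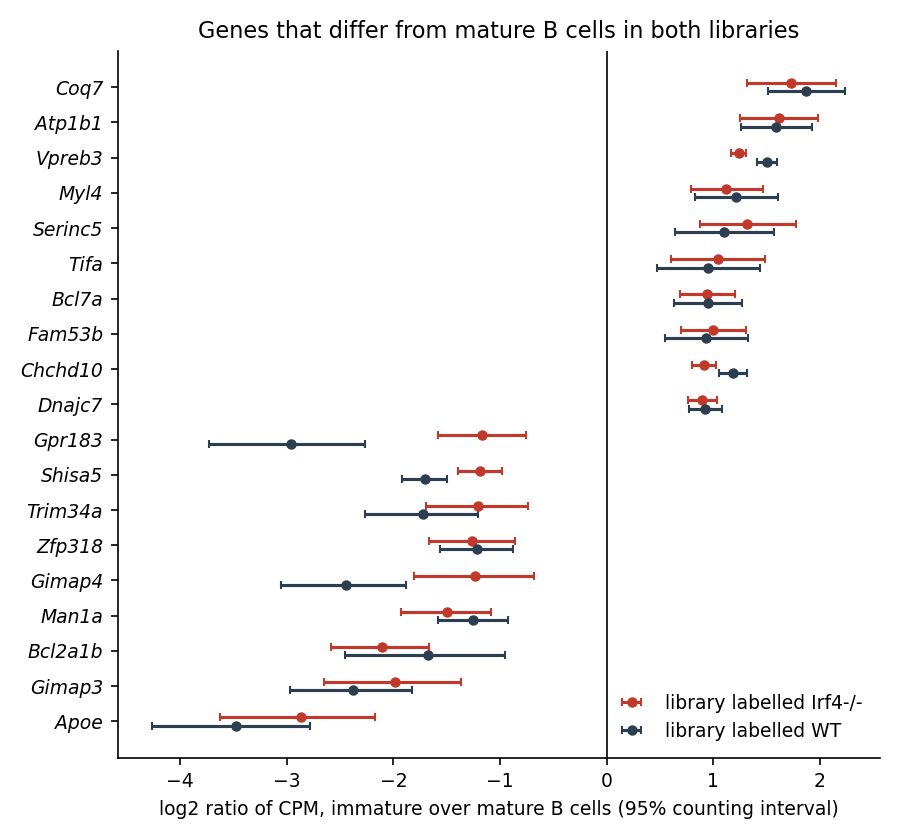
Genes of the highest and lowest ratios of immature over mature B cells with the same sign in both libraries. Points are log2 ratios of CPM and bars are 95% counting intervals. The genes shown lie on the same side of 0 in both libraries because they were chosen so, and the libraries are furthest apart for Gpr183, at -1.17 and -2.96.

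Against progenitor B cells the antigen presentation genes were among the highest. Cd74, the invariant chain of MHC class II, stood at 8424 CPM in immature and 834 CPM in progenitor B cells of the library labelled Irf4-/-, a log2 ratio of 3.34. H2-Eb1, an MHC class II beta chain, had 1240 against 158 CPM, a ratio of 2.97. Ltb, the membrane partner of lymphotoxin, had a ratio of 3.75. In the other direction Il7r, the receptor of the pro-B growth factor interleukin 7, had 30.8 against 436 CPM, a ratio of -3.82. The library labelled WT had 13 progenitor cells with a median of 14657 UMIs, of which 8 were dividing by the limit given below, so its ratios of 7.18 for Cd74, 4.43 for H2-Eb1 and -3.25 for Il7r rest on few and deep cells.

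Between the libraries, immature B cells differed in MHC class II genes, in interferon response genes, in genes of cell division and in single genes such as Wnt10a and Cd38. The cell division difference depended on the selection, as given below. Of 8308 genes with at least 20 UMIs, 252 (3.03%) were at least 2-fold higher in the library labelled Irf4-/- and 330 (3.97%) at least 2-fold lower. In mature B cells 374 of 8548 (4.38%) were higher and 153 (1.79%) lower. These counts include genes with few UMIs, whose ratio is uncertain, and describe a pair of libraries. The named genes of highest and lowest ratio had a mean of at least 50 CPM.

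**Figure D2:**
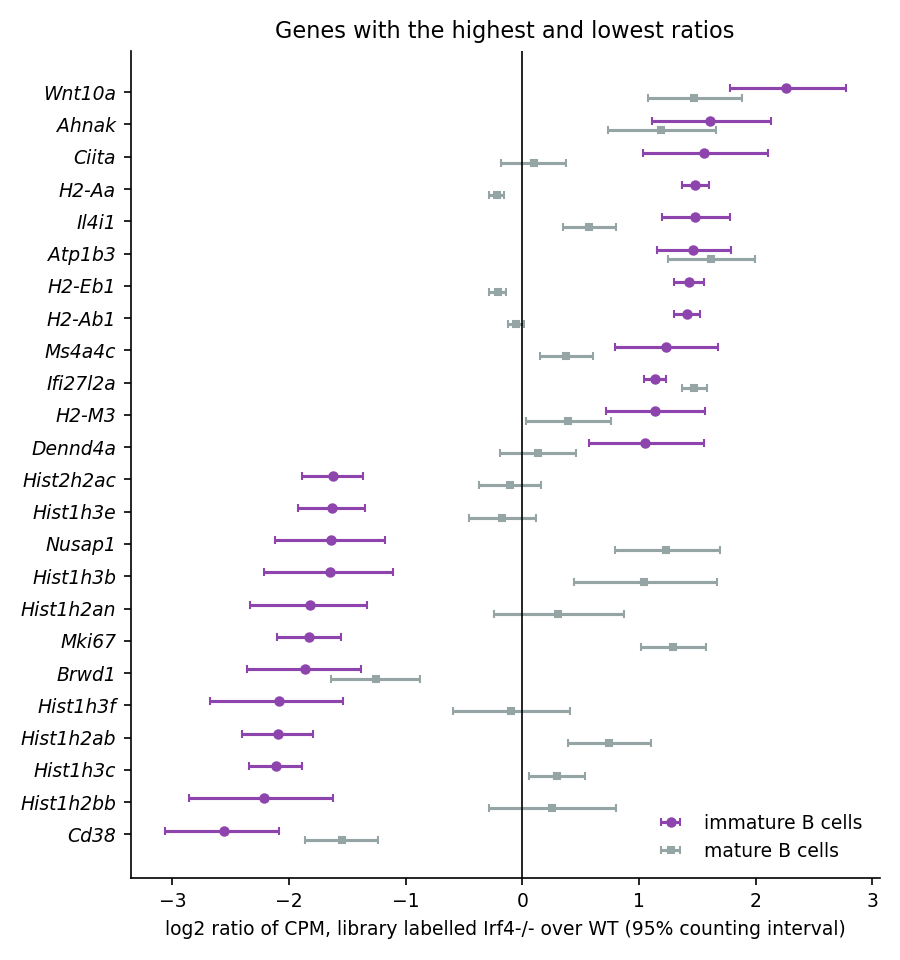
The 12 genes with the highest and the 12 with the lowest log2 ratio of CPM in immature B cells (purple circles), with the same ratio in mature B cells (grey squares). Bars are 95% counting intervals. H2-Aa, H2-Ab1 and H2-Eb1 lie between 1.41 and 1.48 in immature cells and between -0.22 and -0.05 in mature cells, while Wnt10a and Cd38 lie on the same side of 0 in both.

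The classical MHC class II chains were among the abundant genes of higher level. H2-Aa, the alpha chain of I-A (ENSMUSG00000036594, chromosome 17, 34282744 to 34287823), gave 2484 UMIs (1559 CPM, 1498 to 1622) in the immature B cells labelled Irf4-/-. Those labelled WT gave 791 UMIs (557 CPM, 519 to 597). The ratio was 1.48 (1.37 to 1.60), a 2.80-fold higher level. H2-Ab1, the I-A beta chain, had 1639 and 616 CPM, a ratio of 1.41 (1.30 to 1.52), and H2-Eb1 had 1240 and 460 CPM, a ratio of 1.43 (1.30 to 1.56). Ciita, the coactivator that MHC class II promoters require, had 132 and 40 UMIs, a ratio of 1.56 (1.04 to 2.10).

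The other genes of the class II pathway had smaller ratios, from -0.31 to 0.88. Cd74 had 8424 and 5581 CPM, a ratio of 0.59 (0.55 to 0.63). The peptide editor H2-DM had ratios of 0.88 for H2-DMa, 0.83 for H2-DMb1 and 0.64 for H2-DMb2. Its inhibitor H2-DO was split, with 0.50 for H2-Oa and 0.03 (-0.26 to 0.32) for H2-Ob. Of the lysosomal enzymes, Ctss had a ratio of 0.36, Ifi30 0.16 and Lgmn -0.31 (-0.90 to 0.28). In all, 12 of the 13 listed genes were above 0 and 4 at least 2-fold higher, beside 3.03% of all genes. Their median was 0.64, beside -0.03 over all genes. Class II genes had a median above 0 in earlier results of these data, so the list is not independent evidence of its direction.

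In mature B cells 3 of the same 13 genes were above 0 and 10 below. H2-Aa stood at 2189 and 2547 CPM there, a ratio of -0.22 (-0.28 to -0.15), H2-Ab1 at 2041 and 2117 CPM, a ratio of -0.05 (-0.12 to 0.01), and Ciita at 133 and 124 CPM, a ratio of 0.10 (-0.18 to 0.38). The median of the 13 genes was -0.07, with none past 2-fold. Immature cells labelled Irf4-/- thus lay closer to their mature cells, at -0.49 on the log2 scale for H2-Aa, than those labelled WT did, at -2.19. The difference between the stages was not tested, since each stage comes from the same pair of libraries.

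**Figure D3:**
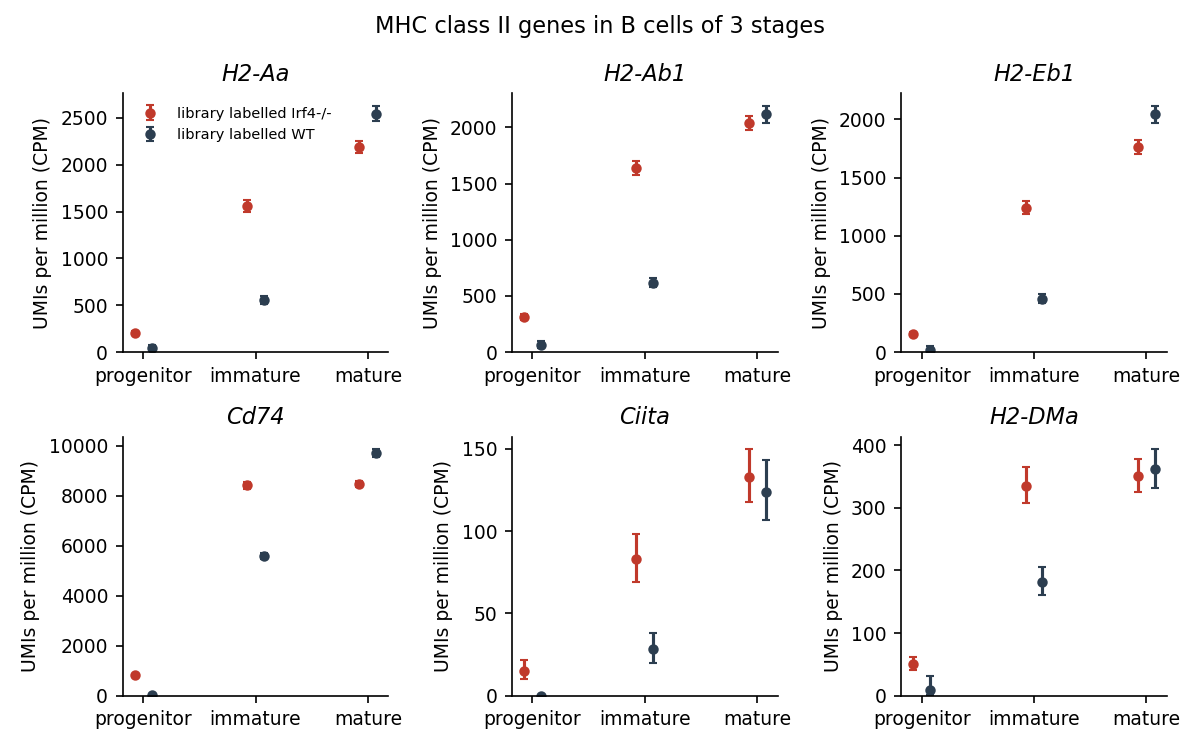
Level of 6 MHC class II genes in progenitor, immature and mature B cells, in CPM over the summed cells of each library, with 95% counting intervals. In immature cells the library labelled Irf4-/- lies above the library labelled WT for all 6 genes (H2-Aa 1559 against 557 CPM), while in mature cells the order is turned or the intervals overlap.

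Along the count of Ighd, which rises with maturation, H2-Aa was higher at each step in both libraries, over a wider range in the library labelled WT. In cells with 0 UMIs of Ighd it stood at 1496 CPM (1418 to 1578) in the library labelled Irf4-/- and at 406 CPM (366 to 449) in the library labelled WT. With 1 UMI of Ighd the levels were 1643 and 858 CPM. In cells outside the selection with 2 UMIs they were 1960 and 1791 CPM, and with 3 or more 2059 and 2369 CPM, and at 2 UMIs the intervals overlapped. Over the same steps Vpreb3 went from 3239 to 1302 CPM in the library labelled Irf4-/- and from 2783 to 687 CPM in the library labelled WT. Its level at 2 UMIs of Ighd was 2304 against 1265 CPM.

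Cell by cell, more cells labelled Irf4-/- held class II transcripts, and the upper part of the distribution was higher as well. The UMIs of H2-Aa, H2-Ab1 and H2-Eb1 together had a 10th percentile of 2, a median of 17.5 and a 90th percentile of 40 per immature cell labelled Irf4-/-. In the library labelled WT these were 0, 1 and 18. Cells without any such UMI numbered 20 of 348 (5.75%, exact interval 3.55 to 8.74%) and 175 of 377 (46.4%, 41.3 to 51.6%). After thinning to 2000 UMIs per cell, which left out 3 and 14 shallower cells, the shares were 9.86% and 52.6%, and the 75th percentiles were 15 and 4 UMIs and the 90th 21 and 11. In mature cells 2.85% and 13.3% held none, and in CD3-expressing cells, the background, 98.3% and 98.8%. The 10 cells with the most H2-Aa held 9.42% of its UMIs in the library labelled Irf4-/- and 28.4% in the library labelled WT.

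**Figure D4:**
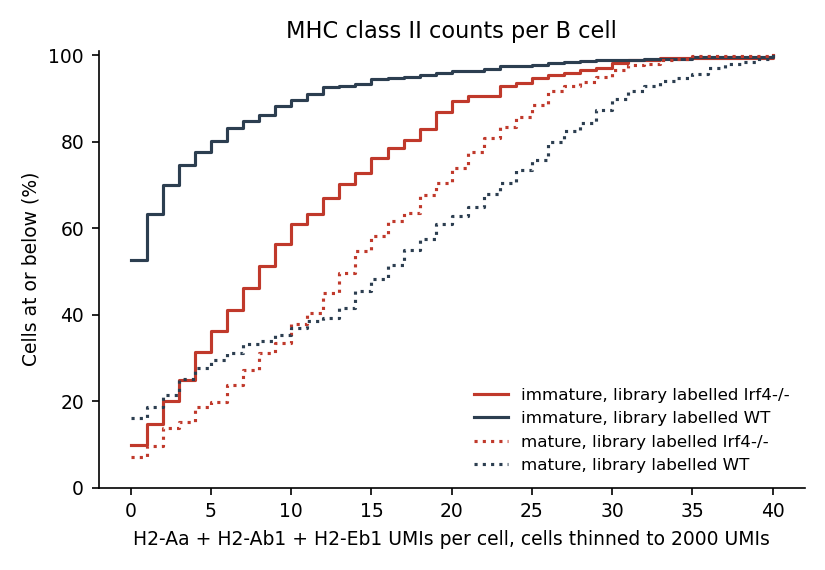
Cumulative share of B cells by their summed UMIs of H2-Aa, H2-Ab1 and H2-Eb1, after thinning every cell to 2000 UMIs. At 0 UMIs the line of immature cells labelled WT (solid, dark) starts at 52.6%, and that of immature cells labelled Irf4-/- (solid, red) at 9.86%. Mature cells (dotted) start at 7.16% and 16.1%.

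With the rule applied after thinning, which moves some cells from mature to immature, H2-Aa stood at 1496 and 662 CPM in immature cells, a ratio of 1.18, and at 2827 and 2781 CPM in mature cells. The ratios of H2-Ab1 and H2-Eb1 in immature cells were then 1.16 and 1.16. The H2-Aa ratio was 1.62 without dividing cells. Within kappa, mixed and lambda cells, defined below, it was 0.92, 1.65 and 2.35.

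Class II promoters are known to share a Y box, bound by the factor NF-Y, beside the X boxes on which CIITA acts. The letters CTGATTGG, searched on both strands in the 250 bases before and 50 bases after each start site in RefSeq's GRCm38.p6 promoters, occur in 1346 of 32851 promoters (4.10%). Of the 13 listed genes 10 had a promoter in that table, and 3 held the letters. H2-Ab1, Cd74 and Ciita had no promoter there. The promoters with the letters are shown, 5′ to 3′ in the direction of the gene with the matched letters in capitals. Their genes are at 1.48, 1.43 and 0.50 on the log2 scale in immature cells. H2-DMa, H2-DMb1 and H2-DMb2 had higher ratios than H2-Oa and no match. In the promoters shown the match lies 51, 62 and 46 bases before the start site. A match is a description of the letters and not a measured site.
H2-Aa, chr17:34287774-34288073, minus strand: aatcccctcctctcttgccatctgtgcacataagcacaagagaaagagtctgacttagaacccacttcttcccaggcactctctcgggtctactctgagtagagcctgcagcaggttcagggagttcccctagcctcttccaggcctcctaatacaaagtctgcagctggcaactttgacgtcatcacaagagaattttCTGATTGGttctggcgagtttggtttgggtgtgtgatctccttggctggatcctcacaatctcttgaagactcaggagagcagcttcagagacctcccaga
H2-Eb1, chr17:34305617-34305916, plus strand: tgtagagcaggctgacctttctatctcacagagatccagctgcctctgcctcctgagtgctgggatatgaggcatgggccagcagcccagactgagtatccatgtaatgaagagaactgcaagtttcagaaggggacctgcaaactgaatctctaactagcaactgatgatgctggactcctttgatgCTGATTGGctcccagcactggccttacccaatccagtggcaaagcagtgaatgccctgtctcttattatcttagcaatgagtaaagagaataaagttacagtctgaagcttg
H2-Oa, chr17:34092129-34092428, plus strand: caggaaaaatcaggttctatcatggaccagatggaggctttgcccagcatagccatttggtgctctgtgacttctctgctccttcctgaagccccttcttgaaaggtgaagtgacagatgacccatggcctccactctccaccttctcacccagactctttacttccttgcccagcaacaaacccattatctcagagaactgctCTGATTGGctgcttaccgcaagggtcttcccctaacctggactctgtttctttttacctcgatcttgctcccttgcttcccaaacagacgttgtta

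The light chain in use also differed between the libraries. A cell with at least 5 UMIs of the constant regions Igkc and Iglc1 to Iglc4 was called lambda with at least 80% of them from the Iglc genes, kappa with at most 20% and mixed in between. In the library labelled Irf4-/- 36 cells were lambda, 150 kappa and 162 mixed. In the library labelled WT 96 were lambda, 81 kappa and 199 mixed. Of lambda and kappa cells together, lambda made up 19.4% (13.9 to 25.8%) and 54.2% (46.6 to 61.7%), a log2 ratio of shares of -1.49. In mature B cells the shares were 19.9% (13.5 to 27.6%) and 45.7% (36.9 to 54.7%), so the difference was not limited to the immature stage. The mature shares rest on 136 and 129 cells. Of mature cells with enough light chain UMIs, 214 of 350 (61.1%) and 277 of 406 (68.2%) were mixed, against 46.6% and 52.9% of immature cells.

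**Figure D5:**
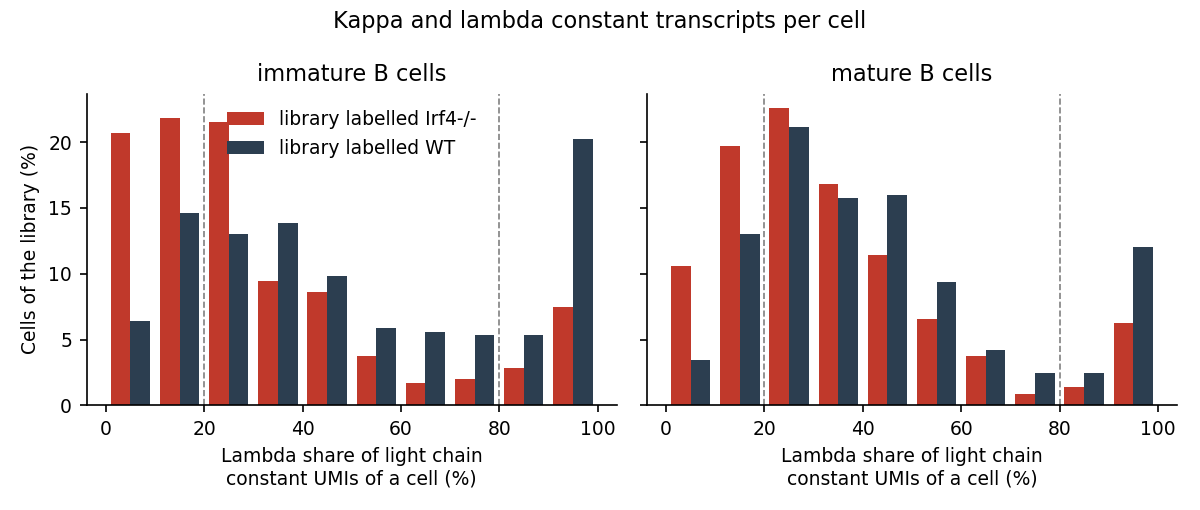
Cells of each library by the lambda share of their light chain constant UMIs, in bins of 10 percentage points, for immature (left) and mature (right) B cells. Dashed lines mark the limits of kappa (20%) and lambda (80%). The bin above 90% is the tallest of the immature cells labelled WT, with 20.2% of them, and the 3 bins under 30% are the tallest of those labelled Irf4-/-, with 20.7%, 21.8% and 21.6%.

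Most of the difference in level came from Iglc1, which is also a marker given for these cells. Iglc1 had 3385 UMIs (2124 CPM) in the library labelled Irf4-/- and 7901 UMIs (5566 CPM) in the library labelled WT, a ratio of -1.39 (-1.45 to -1.33). Igkc was alike, at 10904 and 10147 CPM. Iglc2 had 1634 and 3062 CPM and Iglc3 1316 and 1665 CPM. The last 60 coding bases of the lambda constant genes, on the minus strand of chromosome 16 in GRCm38, show how far a 3' count can tell them apart. Capitals mark bases unlike Iglc2, 13 in Iglc1 and 1 in Iglc3.
Iglc1, within chr16:19061618-19062071: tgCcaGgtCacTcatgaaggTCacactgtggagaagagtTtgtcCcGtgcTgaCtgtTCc
Iglc2, within chr16:19198396-19198853: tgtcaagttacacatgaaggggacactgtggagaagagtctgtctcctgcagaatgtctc
Iglc3, within chr16:19065230-19065681: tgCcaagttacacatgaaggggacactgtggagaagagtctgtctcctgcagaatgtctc
The annotated transcripts of Iglc2 and Iglc3 were identical at 94.3% of aligned positions and those of Iglc1 and Iglc2 at 66.7%, so the split between Iglc2 and Iglc3 is uncertain.

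The variable segments gave a second view that the classes did not use. Iglv1 had a UMI in 32 immature cells labelled Irf4-/- and in 70 labelled WT, and any Igkv segment in 182 (52.3%) and 176 (46.7%). Iglv2 had a UMI in 2 and 14 cells. Iglv3 did not share this direction, at 19 cells labelled Irf4-/- and 16 labelled WT. Among kappa cells an Igkv UMI was seen in 68.0% and 67.9%, and Iglv1 in 1.33% and 4.94%. Among lambda cells Iglv1 was seen in 44.4% and 45.8%, and Igkv still in 33.3% and 19.8%. In mixed cells Igkv was seen in 42.0% and 51.3%, and Iglv1 in 8.64% and 11.1%. In CD3-expressing cells, the background, Igkc had a UMI in 2.93% and 2.53% of cells and the Iglc genes together in 1.47% and 2.04%. A 3' library reads variable segments poorly, and how much of the mixed class comes from free RNA or from several cells in a droplet was not tested.

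Of the light chain classes, lambda cells had the highest level of Rag1 in both libraries. Rag1, the recombinase that rearranges receptor genes, had 14 of its 30 UMIs in the 36 lambda cells labelled Irf4-/- and 27 of 31 in the 96 labelled WT. That is 96.7 CPM (52.8 to 162) and 104 CPM (68.8 to 152). In kappa cells it stood at 9.32 and 0 CPM, where the count of 0 allows up to 11.0 CPM. Few lambda cells carried these counts: Rag1 had a UMI in 16.7% and 12.5% of them. In kappa cells the shares were 2.67% and 0%, and in mixed cells 3.70% and 1.01%. The intervals take UMIs as independent, although several came from the same cell. Cd93 stood at 138 and 135 CPM in lambda cells, at 80.8 and 62.7 CPM in kappa cells and at 37.3 and 42.5 CPM in mixed cells, and the intervals of lambda and kappa cells overlapped in both libraries. H2-Aa was lowest in lambda cells of the library labelled WT, at 213 CPM with a UMI in 24.0% of cells, against 765 CPM and 53.1% in kappa cells. In the library labelled Irf4-/- it stood at 1084 CPM in lambda and 1442 CPM in kappa cells.

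Wnt10a, which encodes a secreted Wnt ligand, had the highest ratio of the ranked genes, those with a mean of at least 50 CPM. It lies on chromosome 1 (74792019 to 74804176, ENSMUSG00000026167) and had 226 UMIs in the library labelled Irf4-/- and 42 in the library labelled WT. The levels were 142 CPM (124 to 162) and 29.6 CPM (21.3 to 40.0), a ratio of 2.26 (1.78 to 2.77). It was seen in 27.9% and 7.96% of cells, and in 17.7% and 5.23% after thinning. In mature B cells the ratio was 1.47 (1.07 to 1.88). The rest of the Wnt list did not share it: of 11 listed genes with enough UMIs 7 were above 0, with a median of 0.16, and the only other member past 2-fold was Ccnd2, a cyclin of the G1 phase, at -1.18.

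Cd38, an ectoenzyme that splits NAD and marks many B cell stages, had the lowest ratio of the ranked genes at the same minimum. It lies on chromosome 5 (43868809 to 43912374, ENSMUSG00000029084) and had 43 UMIs, 27.0 CPM (19.5 to 36.4), in the library labelled Irf4-/- and 226 UMIs, 159 CPM (139 to 181), in the library labelled WT. The ratio was -2.56 (-3.07 to -2.08), a 5.90-fold lower level. A UMI was seen in 8.33% and 38.2% of cells, or 4.35% and 25.1% after thinning. Mature B cells had a ratio of -1.55 (-1.86 to -1.23), and CD3-expressing cells of 1.03. Brwd1, a chromatin reader known in pre-B cells for opening kappa loci, had 47 and 152 UMIs, a ratio of -1.86 (-2.36 to -1.38), and -1.26 in mature cells.

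Among the other named genes, Il4i1, a secreted amino acid oxidase, had 405 and 129 UMIs, a ratio of 1.48 (1.19 to 1.78), and 0.57 in mature cells. Atp1b3, a further sodium pump subunit, had 338 and 109 UMIs, a ratio of 1.47, and 1.61 in mature cells. Ahnak, a large scaffold protein, had 147 and 43 UMIs, a ratio of 1.61, and 1.19 in mature cells. With the rule applied after thinning the ratios in immature cells were 0.88 for Atp1b3 and 0.96 for Ahnak. Ms4a4c, a relative of CD20, had a ratio of 1.23 and Dennd4a, a Rab exchange factor, of 1.06.

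Genes of the type I interferon response were higher in immature and in mature cells. Of 22 listed genes with enough UMIs 18 were above 0 and 7 at least 2-fold higher, beside 3.03% of all genes. Their median was 0.76, beside -0.03 over all genes, and 0.69 in mature cells. Ifi27l2a had 1949 and 884 CPM, a ratio of 1.14 (1.05 to 1.24). Oas1a, a sensor of double-stranded RNA, had 46 and 10 UMIs (2.04), Ifitm3, which blocks viral entry, 33 and 5 (2.56), and Irf7, the factor that amplifies interferon, 53 and 20 (1.24). Other members of the same response were level or lower. Isg15 had 47 and 42 UMIs, and Ifit3 had 0 and 18. The list's median was 0.29 with the rule applied after thinning.

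MHC class I genes, gathered as a list after their values were seen, were all above 0, 16 of 16 with enough UMIs, with a median of 0.72 and of 0.29 in mature cells. H2-M3, which presents formylated peptides, had 165 and 67 UMIs, a ratio of 1.13. Receptor and lineage genes as a group lay near 0. The 31 genes of the B cell receptor and its signalling had a median of 0.01, with Cd38 alone past 2-fold, and the 25 B lineage transcription factors a median of 0.04. Ebf1, the factor that founds the lineage, had 1576 and 1601 CPM, a ratio of -0.02 (-0.11 to 0.06).

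Of the transcription factors, Irf8 had 643 and 387 CPM, a ratio of 0.73 (0.58 to 0.89), and Spib 512 and 377 CPM, a ratio of 0.44 (0.28 to 0.60). Pax5, the identity factor of B cells, had 624 and 677 UMIs, a ratio of -0.28. The 1 member past 2-fold was Bhlhe41, a repressor known in B-1 cells, with 2 and 23 UMIs and a ratio of -3.69 (-6.82 to -1.67). Of the NF-kB list, 13 of 16 were above 0. The median was 0.34, beside -0.03 over all genes and 0.05 for the list in mature cells. Only Cd40 was at least 2-fold higher and only Cd86 at least 2-fold lower, beside 3.03% and 3.97% of all genes. Cd40, the receptor for T cell help, had 193 and 84 UMIs, a ratio of 1.03 (0.66 to 1.42), and Nfkb2 116 and 55 (0.91), while the costimulator Cd86 had 10 and 28 (-1.65).

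The survival list had no shared direction, with a median of -0.05. Bcl2, the guardian of mature lymphocytes, had 23 and 87 UMIs, a ratio of -2.09 (-2.82 to -1.41), and -1.45 in mature cells. Bcl2l1, which encodes Bcl-xL, had 27 and 6 UMIs, 16.9 and 4.23 CPM, and the interval of its ratio ran from 0.70 to 3.57. Bcl2a1b and Bcl2a1d, near-identical copies whose counts are uncertain, had 1.06 and 1.54. Mcl1 was level at 947 and 955 CPM. Homing genes had a median of -0.06 over 16 members. Gpr183 had 68 and 19 UMIs, a ratio of 1.67 (0.92 to 2.49), which was -0.12 in mature cells. The plasma fate gene Slamf7 had 36 and 99 UMIs, a ratio of -1.63. Recombination and progenitor genes had a median of -0.21 over 13 of 21 members, and Rag1 had 30 UMIs against 31.

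Genes of the S, G2 and M phase lists were mostly lower in immature B cells labelled Irf4-/- and mostly higher in mature ones. All 20 genes of the G2 and M phase list were below 0 in immature cells, with a median of -1.29. Of them 17 were at least 2-fold lower, beside 3.97% of all genes. In mature cells all 20 were above 0, with a median of 1.62, and 19 were at least 2-fold higher, beside 4.38% of all genes. Mki67, the proliferation antigen, had 147 and 464 UMIs in immature cells, a ratio of -1.82 (-2.10 to -1.55), and 1.29 in mature cells. Its ratio in immature cells was -0.47 with the rule applied after thinning. S phase genes had medians of -0.32 and 0.64. Replicative histone genes, gathered after their values were seen, had 37 of 43 members at least 2-fold lower, among them Hist1h3c with 204 and 786 UMIs. In mature cells the histone median was 0.18, with 26 members above 0, 16 below, 4 at least 2-fold higher and 1 at least 2-fold lower.

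Few cells carried these counts. Cells with at least 10 UMIs of the G2 and M phase list, called dividing here, numbered 10 of 348 (2.87%, 1.39 to 5.22%) and 24 of 377 (6.37%, 4.12 to 9.32%). They held 86.9% and 95.2% of the list's UMIs in immature cells. In mature cells there were 18 of 351 (5.13%) and 6 of 407 (1.47%). Over immature and mature cells together the shares were 4.01% (2.68 to 5.74%) and 3.83% (2.60 to 5.42%). Dividing cells had a median of 18650 and 10104 UMIs, against 3800 and 2932 in the others. The part of depth in this result was not tested. With the rule applied after thinning, 26 of 501 (5.19%) and 31 of 439 (7.06%) immature cells were dividing, with overlapping intervals. Of mature cells by the rule after thinning, 2 of 188 (1.06%) and 2 of 309 (0.647%) were dividing. The median of the list in immature cells was -0.05 with the rule applied after thinning. Without dividing cells it was 0.22, but the same list defines those cells, so this value is no separate check.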

How the data were processed

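The authors deposited UMI counts for each gene in each barcode, from Cell Ranger 6.1.1 per the file headers. The submitters' processing notes name mm10, and no source used here names the annotation release. Of 8147 and 12732 barcodes, 7955 and 12367 were kept. Doublets were not removed. Members, gene lists and comparison groups were chosen with earlier results of these data known. Counts were summed per library and cell class, in 2 libraries. Log2 ratios of CPM have exact conditional binomial intervals, CPM exact Poisson and shares Clopper-Pearson intervals, at 95%. A gene at 0 in a library used a floor of 3 counts. The shares allowed by 0 UMIs of a sorting marker used the same 3 counts and not a Clopper-Pearson limit. With 1 library per genotype there were no p-values. Named genes were those of the selection rule, the gate and the markers, the 12 highest and 12 lowest ratios at a mean of at least 50 CPM, up to 4 members of each list, and the 10 highest and lowest against each other stage. Mitochondrial-encoded, ribosomal protein, immunoglobulin, T cell receptor, haemoglobin and predicted genes were left out of the ranks. Not every gene that the rule takes is reported here. Other list members in the text were chosen after their values were seen. The alternatives included scaling by edgeR 4.0.16 (TMM). The computation was tested on simulated data. Python 3.11.15, numpy 2.4.6, scipy 1.17.1 and pandas 2.3.3 were used.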

Additional observations from a re-analysis of the deposited data

Results flagged for a closer look

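The cell division lists differed in direction between the stages. For S phase genes the median ratio was -0.316 in immature and 0.636 in mature B cells, on the log2 scale, and the G2 and M phase list -1.29 and 1.62. The difference between the stages was not tested. Dividing cells were the deeper ones, with medians of 18650 and 10104 UMIs in immature cells, and over both stages together they made up 4.01% and 3.83% of cells. With the rule applied after thinning, 5.19% and 7.06% of immature and 1.06% and 0.647% of mature cells were dividing. The G2 and M phase median in immature cells was then -0.053. The part of dividing cells in the result beyond these values was not tested.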

How the results depend on the processing

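Of 71 genes and list medians whose interval excluded 0, 65 kept their direction under every one of 26 settings that applied to them, 19 planned and 7 added after seeing the data. Of 24 genes named by rank, 21 did, and the exceptions were Mki67, Hist1h3c and Hist1h2bb. The log2 ratio of the share of immature B cells (0.52) was 0.83 with the rule applied after thinning, and turned to -0.31 over cells past the Cd79a and CD3 limits and -0.29 over cells with a CD3 sum of at most 1. The log2 ratio of lambda shares lay between -1.56 and -1.25 in the settings run for it. The counts of genes past 2-fold were 72 higher and 143 lower at a minimum of 50 UMIs, and 694 and 931 with none. Without dividing cells 211 were lower. In that setting the G2 and M phase median turned to 0.22, Cenpe to 2.34 and Hist1h2bb to 0.017, and the S phase median was -0.62. The G2 and M phase list itself defines the dividing cells. With the rule applied after thinning the medians were -0.053 for G2 and M phase, -0.13 for S phase and 0.29 for the interferon response. The G2 and M phase median was -1.60 at a CD3 sum of 0, -2.04 at Ighd 0, -1.06 under 5% mitochondrial UMIs, -1.80 as a mean over single cells, -1.77 without cells with CD3, Nkg7 or Trac, -4.61 without cells over 10000 UMIs and -2.02 with members thinned. The S phase median was -0.53 at Ighd 0, -0.14 under 5% mitochondrial UMIs, -0.90 without cells over 10000 UMIs and -0.65 with members thinned. Within lambda cells Mki67 turned to 1.25 and Hist1h3c to 1.84, and Bcl7a turned to -0.060 with members thinned. The cause of these shifts was not tested. TMM scaling moved all ratios by 0.03. No paired analysis was possible because each genotype has 1 library. Depth limits the genes of few UMIs most: the interval of Bhlhe41, with 2 and 23 UMIs, ran from -6.82 to -1.67.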
